A study of Mus musculus with 4 samples.

Results

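Short transcripts from 2 runs of neighbouring identifiers, uc007p and uc008q, were examined in DDX3X CLIP-seq data from mouse embryonic fibroblasts. The members were selected on their identifier, on a summed count of at least 40 over the 4 libraries and on a length under 1000 nt. This rule gave 71 members in uc007p and 36 in uc008q, together 107 of the 59988 transcripts in the table. The summed count and the length are therefore properties of the choice, and the runs were themselves proposed with results of these data known. Every other transcript that met the same count and length limits, 2521 in all, served for comparison.

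The cells were wild-type mouse embryonic fibroblasts (MEF, genotype Wt), grown in culture and labelled as cell line MEF. They received DMSO, the vehicle, or thapsigargin at 400 nM, each for 1 h, were lifted with trypsin and were irradiated on ice with ultraviolet light of 254 nm in 3 doses of 400 mJ/cm2. RNA crosslinked to DDX3X was recovered with a custom rabbit antibody, and each treatment had 2 libraries, replicate 1 and replicate 2. The labels do not say whether these came from separate cultures, so p-values measure the spread between these libraries, which may be technical. The tables carry no gene symbols, and 0 entries of the RefSeq gene table given here hold an identifier of this form, so members are called by identifier, without function, coordinates or sequence, and the fibroblast label could not be set against marker genes.

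CLIP-seq fixes proteins to the RNA they touch with ultraviolet light, purifies 1 protein and sequences the attached RNA fragments. DDX3X is an X-linked RNA helicase of the DEAD-box family that acts in translation initiation and joins stress granules. Thapsigargin blocks the calcium pump of the endoplasmic reticulum, which disturbs protein folding there and triggers the integrated stress response, in which general translation initiation is reduced. A CLIP count depends both on how much of an RNA the cell holds and on how much of it is bound. Abundance and binding cannot be told apart for any value given below, since no input or total-RNA sample was analysed here.

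The DMSO libraries held 10088691 and 2405801 counts and the thapsigargin libraries 10463359 and 3902900. Replicate 2 was shallower in each group, so depth and replicate number cannot be told apart. The most abundant transcript, uc012ath.2, took 12.5% and 18.0% of the counts of the DMSO libraries and 9.08% and 8.69% of those of the thapsigargin libraries. A median uc007p member had 308 and 111 counts with DMSO and 1242 and 484 with thapsigargin, against 194, 36, 184.5 and 70 for a median uc008q member. Levels are given as CPM, counts scaled to library size after TMM scaling, on which 3 counts correspond to between 0.278 and 1.35 CPM. Most members lay far above that floor, and those at a few CPM rest on few counts in the shallower libraries.

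Lengths were recovered from the deposited tables, because the ratio of a count to its TPM (a level corrected for transcript length and library size) is proportional to length within a library. With uc012ath.2 as the reference at 5818 nt, every one of the 49277 transcripts with a count came out at a whole number of nucleotides, within 0.001 nt, from 20 to 101674 nt. The uc007p members ran from 312 to 977 nt with a median of 502 nt, and the uc008q members from 344 to 989 nt with a median of 705 nt. The other short transcripts had a median of 691 nt, so uc007p members were shorter than these. Summed counts had a median of 2134 in uc007p, 505.5 in uc008q and 263 in the other short transcripts.

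The run uc007p holds 625 rows in all, of which 95 had no count, 222 had 1 to 39 counts (47 of them under 1000 nt) and 237 had at least 40 counts at 1000 nt or more. The run uc008q holds 627 rows, with 70 at no count, 191 at 1 to 39 counts (25 of them short) and 330 above the length limit. At the edges of the rule, uc007ptp.1 entered with 42 counts while uc007phl.1 stayed out with 31, and uc007pwh.1 entered at 977 nt while uc007pdu.2 stayed out at 1061 nt. In uc008q the nearest were uc008qcy.1 with 41 counts against uc008qlp.2 with 36, and uc008qbh.2 at 989 nt against uc008qcw.1 at 1008 nt. These rows were given for their place at the thresholds alone.

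To ask how the DDX3X-bound RNA of stressed cells differed from that of resting cells, thapsigargin was compared with DMSO for all 29059 transcripts that passed a filter on low counts. Most short transcripts of uc007p stood higher under thapsigargin, whereas in uc008q a small group did and the others centred near 0. Of the 70 tested uc007p members, 28 rose (40%) and 2 fell, by edgeR's quasi-likelihood test at a Benjamini-Hochberg adjusted p under 0.05 over all tested transcripts. The count of uc007p members called higher depended on the setting: it was 44 with library-size scaling, 48 without a count filter, 29 with DESeq2 and 25 with limma on TPM. Of the 36 tested uc008q members, 10 rose (27.8%) and 0 fell by the same edgeR test, with 2 lower at an unadjusted p under 0.05 and 0 called lower by DESeq2 or by limma on TPM. Over all tested transcripts 3.74% were called higher and 3.67% lower, and of the 2506 other short transcripts tested, 252 (10.1%) were higher and 103 (4.11%) lower. One member, uc007ptp.1, failed the filter and has levels only.

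The runs are described by their medians, without a test over a list. The median log2 fold change was 1.35 in uc007p, or 2.55-fold, with quartiles of 0.38 and 1.79 and a range from -0.81 to 2.78. In uc008q the median was 0.22, with quartiles of -0.19 and 0.68 and a range from -1.23 to 2.56. The other short transcripts had a median of 0.08 with quartiles of -0.33 and 0.49, and all tested transcripts one of 0.00. In uc007p 45 of 70 members (64.3%) had a log2 fold change over 1, against 8 of 36 (22.2%) in uc008q. The same held for 253 of the 2506 other short transcripts (10.1%) and for 905 of all 29059 tested (3.11%).

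**Figure D1:**
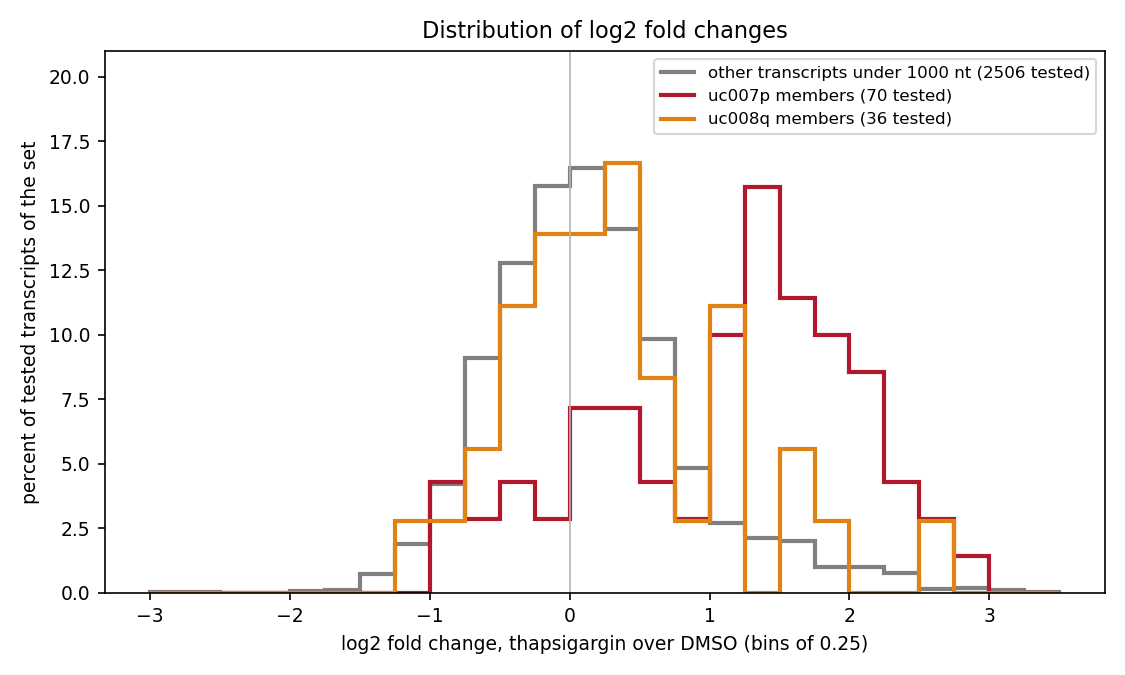
Distribution of the log2 fold change of thapsigargin over DMSO (x axis, bins of 0.25) as a percent of the tested transcripts of each set (y axis), for 70 uc007p members (red), 36 uc008q members (orange) and 2506 other transcripts under 1000 nt (grey). Most of the uc007p outline lies above 1, around a median of 1.35. The uc008q outline follows the grey one around 0, with 8 of its 36 members above 1.

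In terms of single libraries, both thapsigargin values lay above both DMSO values for 51 of 70 uc007p members (72.9%) and for 17 of 36 uc008q members (47.2%). The same held for 26.1% of all tested transcripts and for 822 (32.8%) of the other short ones. Both thapsigargin values lay below both DMSO values for 5 uc007p and 7 uc008q members, and the groups overlapped for 14 and 12. Of all 29059 tested transcripts, 7310 lay below in this way and 14177 overlapped. Among the 2506 other short transcripts tested, 571 lay below and 1113 overlapped. Of the 20 transcripts with the smallest p, 9 were members, as were 15 of the first 50 and 18 of the first 100. Members made up 106 of the 29059 tested transcripts. Their runs were proposed with results of these data known, so these ranks are a description. Of the 290 short transcripts called higher, 38 (13.1%) were members, which made up 106 of the 2612 short transcripts tested (4.06%).

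Length and abundance also differed between members and the other short transcripts, and their part in the counts of calls was not tested. Restricted to 300 nt or more, the other short transcripts gave 156 higher of 2197 (7.10%), with a median log2 fold change of 0.04. Among those with at least 1000 counts in sum, 104 of 400 (26%) were higher, with a median of 0.16. At that depth the members gave 24 of 43 (55.8%) in uc007p, with a median of 1.51, and 10 of 12 (83.3%) in uc008q, with a median of 1.18. The sum includes the thapsigargin libraries, so a member can pass this limit because it is high there. uc008qfj.1, for example, passed with 1298 counts, of which 113 and 44 were in DMSO. The shares and medians at this limit are therefore partly set by the filter. In every set the share called higher and the median were larger at this limit than without it. In the other short transcripts the median went from 0.08 to 0.16.

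Longer transcripts of the same runs did not share the shift as sets. Of 236 tested uc007p rows of 1000 nt or more, 10 were higher (4.24%) and 7 lower, and their median log2 fold change was -0.02. Of 330 such uc008q rows, 15 were higher (4.55%) and 11 lower, with a median of 0.06. These shares are close to the 3.74% of all tested transcripts. Other runs of the same identifier form were compared by their short transcripts: among the 92 runs with at least 15 tested short rows, uc007p and uc012h, the latter with 25 tested rows, had the highest medians at 1.35 each, and uc008q stood at rank 22. By the share called higher, uc056z with 15 tested rows equalled uc007p at 40%, followed by uc011z at 36.8%, uc012h at 36% and uc012e at 34.6%, and uc008q stood at rank 6. High shares of calls were thus found in other runs as well.

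Along the identifier order, the high values of uc007p lay together. From uc007pra.2 to uc007pvj.2, places 21 to 68 of the 71 members, all 47 tested members had a log2 fold change between 0.87 and 2.78, with a median of 1.58 or 2.99-fold. This stretch was bounded after its values were seen, so its counts are a description. Within it 26 members rose and 0 fell, 21 did not pass the adjusted threshold, and 46 had both thapsigargin values above both DMSO values, uc007pvj.2 being the exception. Of the 47, 42 had an unadjusted edgeR p under 0.05, as did 765 of the 2506 other short transcripts and 6221 of all 29059 tested. The 23 members outside it had a median of 0.06 and a range from -0.81 to 0.75, with 2 higher, 2 lower and 19 not called. Whether neighbouring identifiers are neighbours in the genome was not tested.

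**Figure D2:**
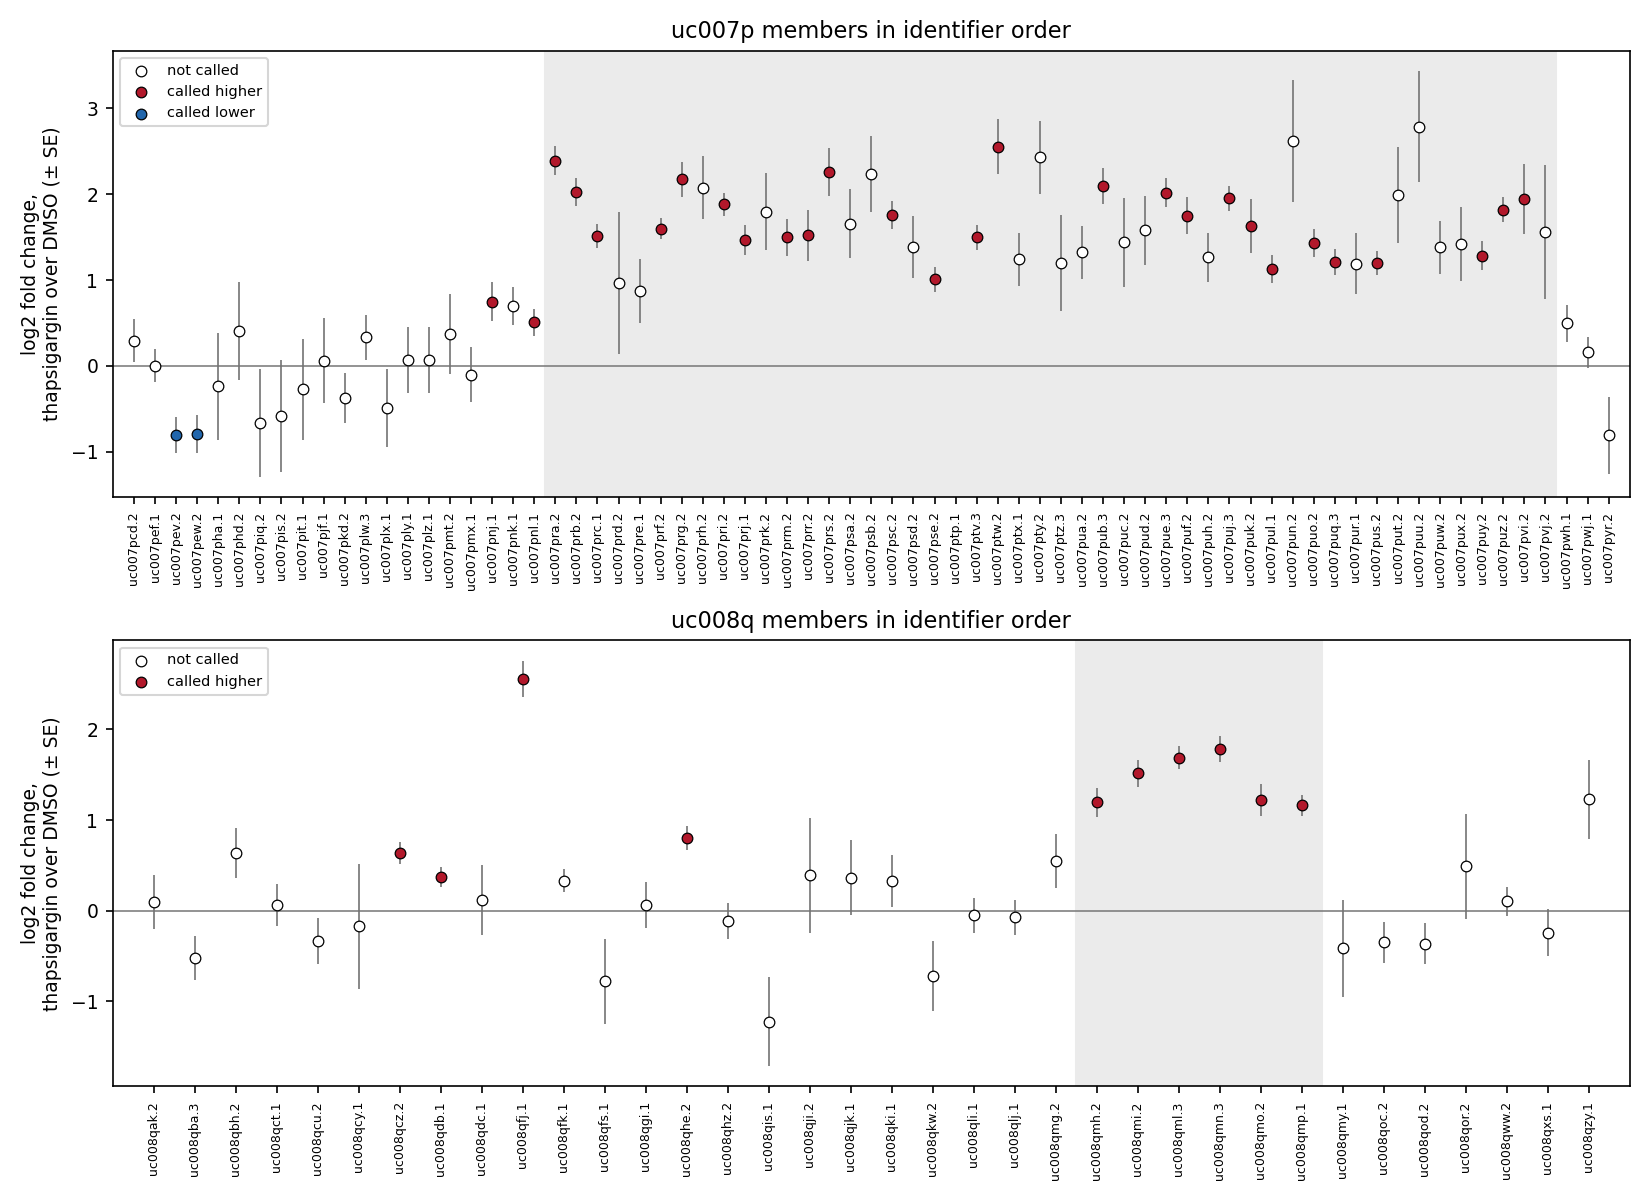
Log2 fold change of thapsigargin over DMSO (y axis, points, bars ± 1 SE) for the members of uc007p (top) and uc008q (bottom) in identifier order (x axis), filled red where called higher, blue where called lower and open where not called, with the described stretch shaded. All 47 tested points in the uc007p shading lie at 0.87 or above and the 6 in the uc008q shading between 1.16 and 1.79. Points outside have a median of 0.06 in uc007p and 0.08 in uc008q. They run from -0.81 to 0.75 and from -1.23 to 2.56.

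In uc007p the members before the stretch hold both called decreases. uc007pev.2 (782 nt) measured 35.9 and 37.3 CPM with DMSO and 24.5 and 15.6 CPM under thapsigargin, and fell by 0.80 on the log2 scale (adjusted p = 0.0148 by edgeR, SE 0.21). uc007pew.2 (587 nt), the next member, measured 30.3 and 31.9 CPM against 21.4 and 12.9 CPM and fell by 0.79 (adjusted p = 0.0272 by edgeR, SE 0.22). The groups did not overlap for either member, and in both the second thapsigargin library was the lowest of the 4. Their counts ran nearly in parallel. They were 364 and 83 in DMSO and 265 and 62 under thapsigargin for uc007pev.2, against 308, 71, 231 and 51 for uc007pew.2. Whether these members hold the same reads was not tested. Without that library the edgeR adjusted p became 0.196 and 0.317, and without the first DMSO library 0.0659 and 0.0912. DESeq2 gave 0.0543 and 0.0890, the ranges over all alternatives being 7.56e-04 to 0.196 and 2.40e-03 to 0.317.

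The 2 increases outside the stretch were small. They fall outside the rule for members described in full and are named after their values were seen. uc007pnj.1 (786 nt) measured 14.0 and 15.7 CPM in DMSO against 24.5 and 24.4 CPM, with a log2 fold change of 0.75 (adjusted p = 0.0395 by edgeR, SE 0.23). uc007pnl.1 (946 nt) measured 64.3 and 51.6 CPM against 96.0 and 70.5 CPM, with a log2 fold change of 0.51 (adjusted p = 0.0456 by edgeR, SE 0.16). The first was not called without the first DMSO library, the first thapsigargin library or the second thapsigargin library (edgeR adjusted p = 0.217, 0.212 and 0.165), and the second not without the second DMSO or the first thapsigargin library (0.177 and 0.610). DESeq2 (adjusted p = 0.148 and 0.153) and limma on TPM (0.0978 and 0.421) called neither. Both sit directly before the stretch, on either side of uc007pnk.1, whose log2 fold change of 0.70 did not pass (edgeR adjusted p = 0.0517). The counts of uc007pnj.1 and uc007pnk.1 were within 10% of each other in every library, so they may hold the same reads.

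The stretch opens with some of the firmest increases of the run. uc007pra.2 (431 nt) measured 21.2 and 32.8 CPM in DMSO and 125 and 137 CPM under thapsigargin, a log2 fold change of 2.39 (adjusted p = 3.87e-10 by edgeR, SE 0.17). uc007prb.2 (448 nt) measured 27.0 and 37.7 CPM against 115 and 135 CPM, a log2 fold change of 2.02 (adjusted p = 1.38e-09 by edgeR, SE 0.16). Both were low in the 2 DMSO libraries, and the lower thapsigargin value was over 3 times the higher DMSO value in each. uc007prf.2 (409 nt) was the most abundant uc007p member, at 252 and 294 CPM in DMSO (273 ± 30.2, SD, n = 2) and 834 and 812 CPM under thapsigargin (823 ± 15.9, SD, n = 2). Its log2 fold change was 1.60 (adjusted p = 8.09e-10 by edgeR, SE 0.12), and its length-corrected level went from 1465 and 1579 TPM to 4261 and 3901 TPM.

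Next in order, uc007prh.2 (431 nt) measured 82.8 and 158 CPM in DMSO and 425 and 554 CPM under thapsigargin. Its log2 fold change of 2.07 did not pass (adjusted p = 0.0547 by edgeR, SE 0.37) while the second DMSO library lay 0.93 above the first on the log2 scale. The call depended on the setting: DESeq2 (adjusted p = 2.11e-03), limma on TPM (0.0221), library-size scaling (1.50e-06) and the fit without a count filter called it higher. The alternatives ranged from 1.43e-71 to 0.0804. With 1 library left out its log2 fold change ran from 1.62 to 2.56. uc007pri.2 (794 nt) measured 110 and 134 CPM against 440 and 446 CPM, with a log2 fold change of 1.88 (adjusted p = 3.87e-10 by edgeR, SE 0.13). uc007psc.2 (403 nt) measured 32.1 and 49.8 CPM against 137 and 122 CPM, with a log2 fold change of 1.75 (adjusted p = 2.43e-08 by edgeR, SE 0.17). In both of these called members the thapsigargin libraries were the high ones and differed little from each other.

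uc007pse.2 (429 nt) was already high in DMSO, at 214 and 316 CPM, and measured 529 and 524 CPM under thapsigargin. Its log2 fold change of 1.01 (adjusted p = 2.05e-05 by edgeR, SE 0.14) was among the smaller ones of the stretch, and on the deposited TPM the limma adjusted p was 0.105. uc007ptv.3 (435 nt) rose from 138 and 188 CPM to 411 and 500 CPM, a log2 fold change of 1.50 (adjusted p = 2.91e-08 by edgeR, SE 0.14). The next member of high abundance, uc007pty.2 (522 nt), measured 71.5 and 150 CPM in DMSO and 530 and 602 CPM under thapsigargin. This was one of the largest differences of the run, with a log2 fold change of 2.43, yet it did not pass (adjusted p = 0.0723 by edgeR, SE 0.42). The groups did not overlap, and the second DMSO library lay 1.06 above the first on the log2 scale. DESeq2 (adjusted p = 4.03e-04), limma on TPM (0.0153), library-size scaling (2.05e-04) and the fit without a count filter did call it, the alternatives ranging from 2.86e-97 to 0.0957. With 1 library left out its log2 fold change ran from 1.92 to 2.98.

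uc007pub.3 (776 nt) measured 118 and 202 CPM in DMSO and 619 and 717 CPM under thapsigargin, with a log2 fold change of 2.10 (adjusted p = 1.47e-04 by edgeR, SE 0.21). uc007pue.3 (464 nt) measured 56.0 and 81.2 CPM against 227 and 311 CPM, with a log2 fold change of 2.02 (adjusted p = 2.25e-08 by edgeR, SE 0.17). Both rose, from a first DMSO library that was the lowest of the 4. uc007puh.2 (368 nt), the shortest member described in full, measured 229 and 408 CPM in DMSO and 684 and 827 CPM under thapsigargin. It did not pass, at a log2 fold change of 1.26 (adjusted p = 0.0595 by edgeR, SE 0.28), although no DMSO value reached a thapsigargin value. It was called with library-size scaling (edgeR adjusted p = 5.58e-07) and without a count filter (1.72e-20), but not by DESeq2 (0.0612) or limma on TPM (0.0948). The alternatives ranged from 1.36e-33 to 0.103. Its log2 fold change ran from 0.88 to 1.72 with 1 library left out. Per length it stood at 1481 and 2435 TPM in DMSO and 3880 and 4417 TPM under thapsigargin. These levels were close to those of uc007prf.2 except in the second DMSO library, where uc007prf.2 stood at 1579 TPM.

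uc007puj.3 (782 nt) rose from 97.7 and 133 CPM to 397 and 478 CPM, a log2 fold change of 1.95 (adjusted p = 6.31e-10 by edgeR, SE 0.15). uc007puq.3 (725 nt) measured 249 and 382 CPM against 704 and 738 CPM, a log2 fold change of 1.21 (adjusted p = 4.53e-06 by edgeR, SE 0.15). It is one of the longer members of high abundance and had a smaller log2 fold change than uc007puj.3. uc007pur.1 (480 nt) measured 168 and 314 CPM in DMSO and 471 and 608 CPM under thapsigargin, and did not pass (log2 fold change 1.19, adjusted p = 0.166 by edgeR, SE 0.35). Here the replicate 2 libraries were the higher ones in both groups, without overlap between the groups. The same settings called it as for uc007puh.2, with an edgeR adjusted p of 4.76e-04 under library-size scaling. Neither DESeq2 (0.140) nor limma on TPM (0.1004) did, and the alternatives ranged from 4.64e-28 to 0.216. With 1 library left out its log2 fold change ran from 0.77 to 1.68.

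Towards the end of the stretch, uc007puy.2 (502 nt) rose from 153 and 253 CPM to 472 and 497 CPM, a log2 fold change of 1.28 (adjusted p = 9.99e-05 by edgeR, SE 0.17). uc007puz.2 (745 nt) rose from 107 and 150 CPM to 420 and 469 CPM, a log2 fold change of 1.82 (adjusted p = 1.09e-09 by edgeR, SE 0.14). For both, the thapsigargin libraries agreed more closely than the DMSO libraries did. With limma on the deposited TPM, uc007puq.3 and uc007puy.2 were not called (adjusted p = 0.0600 and 0.0586). Over all alternatives the adjusted p ran from 7.01e-30 to 0.0600 and from 5.93e-31 to 0.0586 for these members, and from 9.03e-20 to 0.105 for uc007pse.2.

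**Figure D3:**
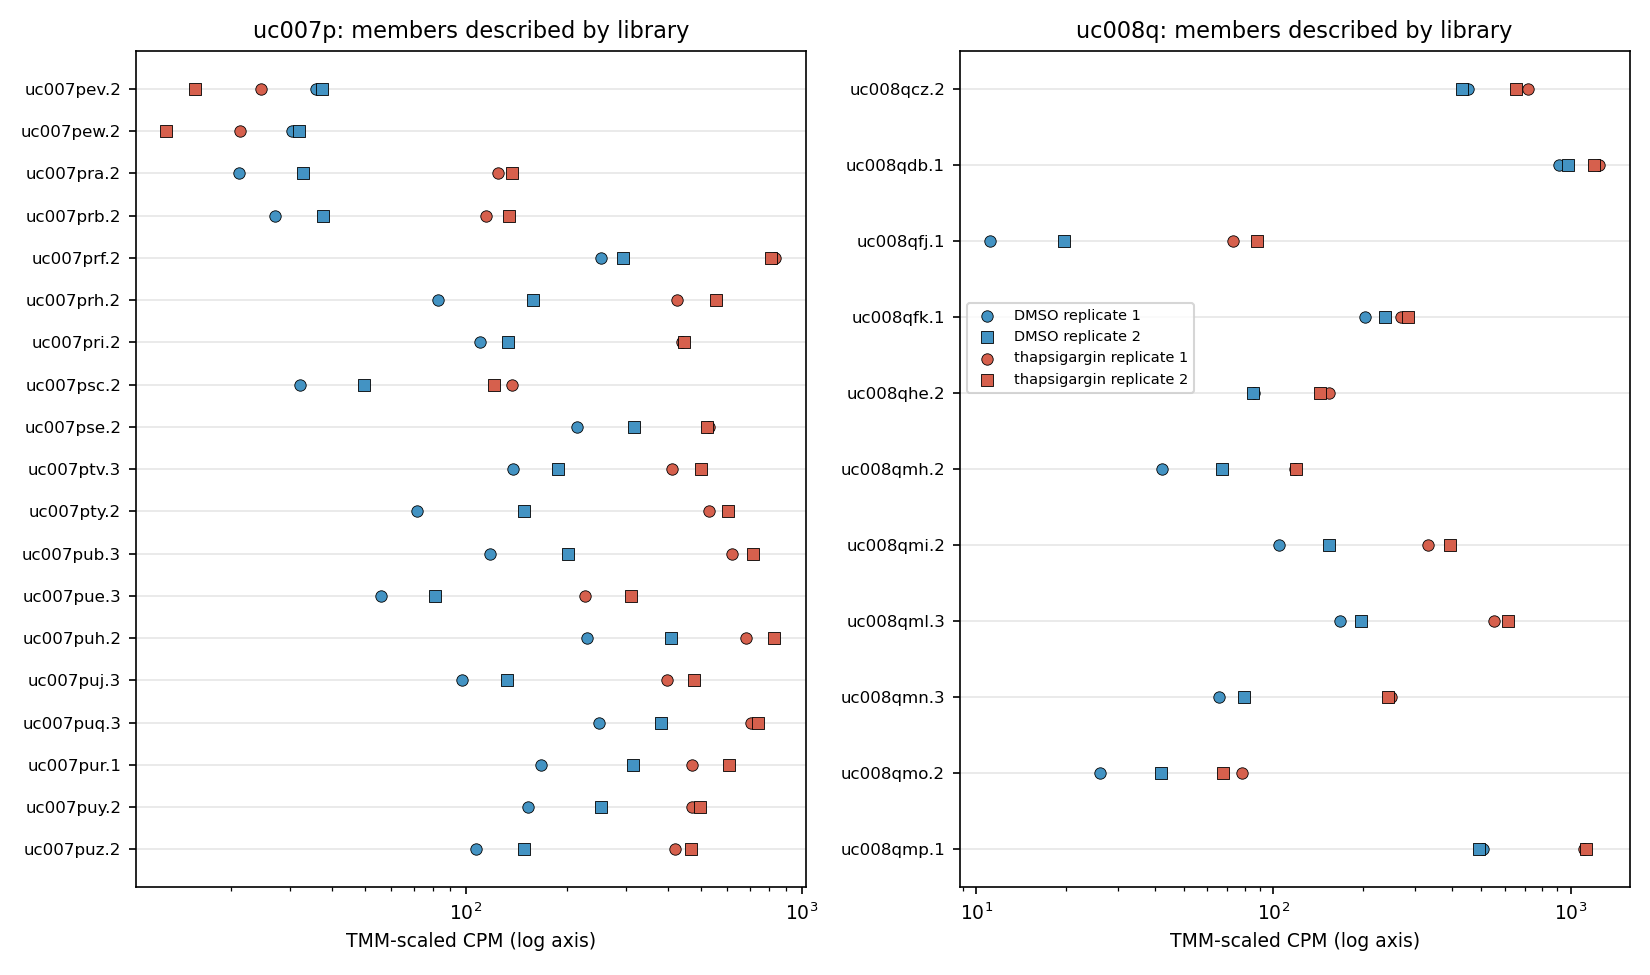
TMM-scaled CPM (x axis, log scale) in each library for the 19 uc007p (left) and 11 uc008q (right) members described with all their values, with DMSO in blue, thapsigargin in red, circles for replicate 1 and squares for replicate 2. The red points lie to the right of the blue ones for every member shown except uc007pev.2 and uc007pew.2, and in uc007p from uc007pra.2 on the blue squares lie to the right of the blue circles.

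The DMSO libraries differed from each other in a way that followed the stretch. For all 47 tested members of it, the second DMSO library was above the first, by a median of 0.93 on the log2 scale and a range from 0.20 to 2.49. The thapsigargin libraries differed by a median of 0.21 in the same direction, with replicate 2 higher for 42 of 47. Outside the stretch the DMSO difference had a median of -0.16, and over all tested transcripts one of -0.01. Thus the second DMSO library stood between the first DMSO library and the thapsigargin libraries at 46 of these 47 transcripts, and what set it apart was not tested.

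The edgeR test uses this spread, and members not called tended to be those in which it was wide. The DMSO difference had a median of 0.62 (range 0.20 to 1.47) among the 26 called members of the stretch and of 1.15 (range 0.83 to 2.49) among the 21 not called. uc007puu.2 (461 nt) had the highest log2 fold change of all members, 2.78, with 16.4 and 42.6 CPM in DMSO and 137 and 209 CPM under thapsigargin, and was not called (adjusted p = 0.179 by edgeR, SE 0.65). uc007prd.2 (483 nt) measured 58.2 and 199 CPM in DMSO against 210 and 260 CPM, so that its second DMSO library nearly reached the thapsigargin values (log2 fold change 0.97, adjusted p = 0.651 by edgeR, SE 0.83). These 2 members were picked after their values were seen.

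**Figure D4:**
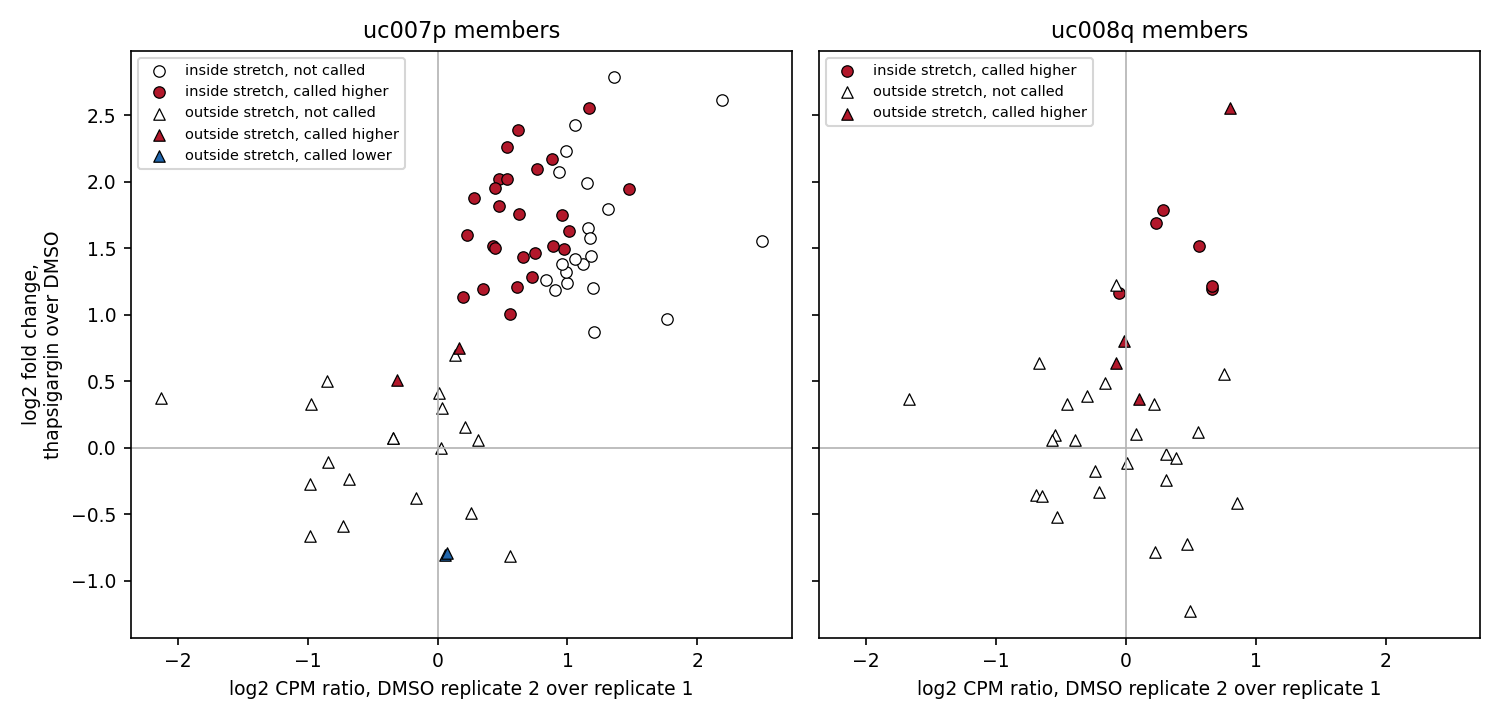
Log2 fold change of thapsigargin over DMSO (y axis) against the log2 CPM ratio of DMSO replicate 2 over replicate 1 (x axis) for the tested members of uc007p (left) and uc008q (right), circles inside and triangles outside the described stretch, red called higher, blue called lower, open not called. Every circle of uc007p lies right of 0, from 0.20 to 2.49, and the open circles lie further right than most of the red ones.

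Leaving out a library showed the same dependence. The median of the uc007p members was 0.94 without the first DMSO library and 1.73 without the second. Within replicate numbers it was 1.70 for the replicate 1 libraries and 1.02 for the replicate 2 libraries, against 0.17 and 0.28 in uc008q and 0.06 and 0.13 in the other short transcripts. Across members the log2 ratios of the 2 replicate numbers had a Pearson r of 0.80 and a Spearman rho of 0.80 in uc007p (n = 70) and 0.70 and 0.68 in uc008q (n = 36). Each ratio pairs libraries that share depth class, and transcripts are not independent replicates. Inside the uc007p stretch the values were 0.59 and 0.65 (n = 47).

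The level of the uc007p stretch per length was high. Its median member stood at 286.8 and 440.1 TPM with DMSO and at 1016 and 1058 TPM with thapsigargin. Over all uc007p members the medians were 146.9, 239.8, 491.5 and 499.5 TPM in the same order. Other short transcripts stayed between 34.4 and 39.6 TPM in the 4 libraries. Length did not order the changes within the stretch (Pearson r = 0.09, Spearman rho = 0.09 across 47 members), while across all 70 tested members shorter ones tended to have higher values (r = -0.45, rho = -0.39).

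Between the first and last identifier of the stretch lie 54 further rows that are not members, of which 29 had no count, 19 had 1 to 39 counts and 6 were longer than the limit. uc007pug.2 (1886 nt) and uc007pui.2 (2506 nt) each had a log2 fold change of 1.80 and were called higher (edgeR adjusted p = 0.0245 and 4.22e-09). The other 4 long rows, uc007pry.1, uc007ptn.3, uc007pto.1 and uc007pup.1, had log2 fold changes of 0.54, 0.54, 0.46 and 0.30 and were not called. All 6 were above 0, and only those between uc007puf.2 and uc007puj.3 reached the size seen in the short members.

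In uc008q the called increases lay in a shorter stretch and at 4 separate members. The stretch runs from uc008qmh.2 to uc008qmp.1 and holds 6 members of 384 to 596 nt, all of which rose, by 1.16 to 1.79 on the log2 scale with a median of 1.37 or 2.58-fold. It too was bounded after its values were seen. Of the 30 members outside it, 4 rose, 26 were not called, and the median log2 fold change was 0.08 with a range from -1.23 to 2.56. The median level of the 6 was 468 and 590 TPM in DMSO and 1416 and 1448 TPM under thapsigargin, compared with 59.0, 45.8, 47.7 and 44.9 TPM for the median uc008q member.

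In identifier order, the first called members of uc008q were abundant ones with small changes. uc008qcz.2 (499 nt) measured 452 and 430 CPM in DMSO and 717 and 657 CPM under thapsigargin, a log2 fold change of 0.64 (adjusted p = 7.29e-04 by edgeR, SE 0.12). uc008qdb.1 (719 nt) was the most abundant member of either run in CPM, at 916 and 983 CPM in DMSO and 1249 and 1202 CPM under thapsigargin. Its log2 fold change of 0.37 (adjusted p = 0.0413 by edgeR, SE 0.11) was the smallest of any called member, and it was not called when any 1 of the 4 libraries was left out (adjusted p between 0.0620 and 0.191). Per length it stood at 3033 and 3000 TPM in DMSO and 3629 and 3287 TPM under thapsigargin. With limma on TPM, uc008qcz.2 had an adjusted p of 0.309 (alternatives from 2.98e-08 to 0.309) and uc008qdb.1 one of 0.699 (alternatives from 2.04e-03 to 0.699).

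uc008qfj.1 (504 nt) had the highest log2 fold change of uc008q, 2.56 (adjusted p = 1.15e-09 by edgeR, SE 0.20), from 11.1 and 19.8 CPM in DMSO to 73.3 and 87.9 CPM under thapsigargin. The groups were far apart, with the lower thapsigargin value more than 3 times the higher DMSO value. Its neighbour uc008qfk.1 (650 nt) measured 204 and 237 CPM against 268 and 285 CPM and did not pass (log2 fold change 0.33, adjusted p = 0.113 by edgeR, SE 0.13), except with library-size scaling (0.0493) among alternatives without a block, all alternatives ranging from 0.0260 to 0.647. uc008qhe.2 (949 nt), the longest member described in full, rose from 86.0 and 85.3 CPM to 154 and 144 CPM, a log2 fold change of 0.80 (adjusted p = 2.16e-04 by edgeR, SE 0.13). Its replicates agreed closely in both groups, and limma on TPM gave an adjusted p of 0.0773 (alternatives from 1.06e-08 to 0.0773).

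Of the 6 members of the stretch, uc008qmh.2 (438 nt) rose from 42.3 and 67.3 CPM to 118 and 119 CPM, a log2 fold change of 1.20 (adjusted p = 1.42e-05 by edgeR, SE 0.16). uc008qmi.2 (468 nt) rose from 105 and 154 CPM to 331 and 394 CPM, a log2 fold change of 1.52 (adjusted p = 6.17e-08 by edgeR, SE 0.15). In both, the second DMSO library lay above the first by about as much as in many uc007p members. uc008qml.3 (596 nt) rose from 167 and 197 CPM to 553 and 614 CPM, a log2 fold change of 1.69 (adjusted p = 7.08e-10 by edgeR, SE 0.13). uc008qmn.3 (384 nt), the shortest of the 6, rose from 65.4 and 79.9 CPM to 249 and 243 CPM, with the highest log2 fold change among them, 1.79 (adjusted p = 8.75e-10 by edgeR, SE 0.14). The replicates of these latter members lay close together beside the distance between the groups.

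uc008qmo.2 (502 nt) rose from 26.1 and 41.7 CPM to 78.2 and 67.5 CPM, a log2 fold change of 1.22 (adjusted p = 4.05e-05 by edgeR, SE 0.18). uc008qmp.1 (493 nt) was second in abundance in uc008q, at 509 and 491 CPM in DMSO and 1106 and 1131 CPM under thapsigargin, with a log2 fold change of 1.16 (adjusted p = 5.14e-08 by edgeR, SE 0.12). It was the only member of the stretch whose second DMSO library was not above the first, and its length-corrected level, 2456 and 2183 TPM in DMSO against 4685 and 4507 TPM, was under thapsigargin the highest named here. With limma on TPM, uc008qmh.2, uc008qmo.2 and uc008qmp.1 were not called (adjusted p = 0.0528, 0.0602 and 0.0852). Their other alternatives all kept the call, the adjusted p starting at 4.12e-17, 3.49e-13 and 3.87e-29. Over the 6 members the DMSO difference between replicates had a median of 0.42 on the log2 scale, positive in 5.

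One row between these identifiers is not a member. uc008qmj.1 (2618 nt) measured 5.81 and 8.98 CPM in DMSO and 21.1 and 34.0 CPM under thapsigargin, with a log2 fold change of 2.00 (edgeR adjusted p = 3.41e-05). It too was higher without overlap, at a far lower level than the 6 members. Outside the stretch the last member of the run, uc008qzy.1 (454 nt), had a log2 fold change of 1.23 that did not pass (edgeR adjusted p = 0.0845), at 2.86 and 2.69 CPM against 5.74 and 7.81 CPM. It was picked after its values were seen.

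Summed over members, uc007p took a larger part of the thapsigargin libraries. Its 71 members held 0.392% and 0.591% of all DMSO counts (Wilson 95% intervals 0.389 to 0.396 and 0.581 to 0.600) and 1.36% and 1.52% of all thapsigargin counts (1.35 to 1.36 and 1.51 to 1.54). The means were 0.492% ± 0.140 and 1.44% ± 0.119 (SD, n = 2 each), a difference of 0.948 percentage points and a ratio of 2.93. The groups did not overlap, and the difference exceeded the spread between replicates, but with 6 ways to assign 4 libraries the exact permutation test (two-sided) cannot go below p = 0.333, the value it gave. The intervals cover counting error only.

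For uc008q the shares were 0.295% and 0.289% in DMSO (Wilson 95% intervals 0.292 to 0.299 and 0.282 to 0.296) and 0.540% and 0.536% under thapsigargin (0.536 to 0.545 and 0.529 to 0.543). The means were 0.292% ± 0.00464 and 0.538% ± 0.00329 (SD, n = 2 each), a ratio of 1.84, with the same exact permutation p of 0.333. In contrast to uc007p, the 2 DMSO libraries had overlapping counting intervals. The other short transcripts together held 5.72% and 5.63% in DMSO and 6.46% and 6.66% under thapsigargin, a ratio of 1.16.

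**Figure D5:**
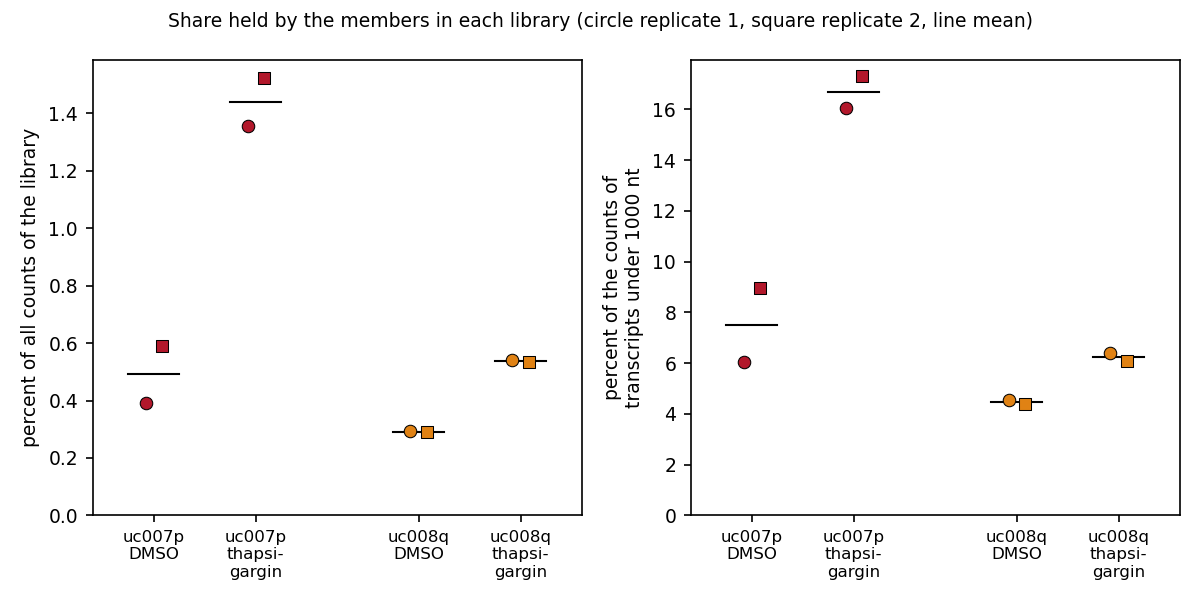
Share of the counts held by the uc007p members (red) and uc008q members (orange) in each library, as a percent of all counts (left) and of the counts of transcripts under 1000 nt (right), with circles for replicate 1, squares for replicate 2 and a line at the mean of 2 libraries. On the left uc007p goes from 0.392% and 0.591% to 1.36% and 1.52% and uc008q from 0.295% and 0.289% to 0.540% and 0.536%, and neither run has a DMSO point as high as a thapsigargin point in either panel.

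Relative to short transcripts alone the picture was similar. uc007p members held 6.05% and 8.97% of the counts under 1000 nt in DMSO and 16.0% and 17.3% under thapsigargin. uc008q members held 4.55% and 4.39% against 6.40% and 6.09%. On the deposited TPM, uc007p took 1.84% and 2.82% of the total in DMSO and 5.48% and 5.90% under thapsigargin, a ratio of 2.44, and uc008q had a ratio of 1.62. The other short transcripts held 25.2% and 25.9% of TPM in DMSO and 29.6% and 31.8% under thapsigargin, a ratio of 1.20, and the part of a general shift towards short transcripts in the values of either run was not tested. In uc008q the summed share weights abundant members most, including uc008qcz.2 and uc008qdb.1, which rose outside the stretch described above. The 30 members outside it had a median log2 fold change of 0.08, as the other short transcripts did. That median counts each member alike and does not measure their part in the summed share.

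Some members had the same or similar counts. uc007ply.1 and uc007plz.1 had identical counts in all 4 libraries, and 4 pairs differed by at most 10% in every library, namely uc007pnj.1 with uc007pnk.1, uc007psa.2 with uc007pud.2, uc008qli.1 with uc008qlj.1, and uc008qoc.2 with uc008qod.2. Only uc007psa.2 and uc007pud.2 lie in a described stretch. With identical rows kept once, 27 uc007p members were called higher, 26 of them shared with the 28 above, and all 10 of uc008q were shared. How reads that match several transcripts were counted is not given in the sources used here, so similar members may share reads.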

How the data were processed

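The authors deposited a table of whole-number counts and another of TPM, per the file headers, each with 1 column per library. The submitters' processing notes list cutadapt 4.1, STAR 2.7.0d and GRCm38/mm10; the counter, annotation release, use of strand, multiple matches and duplicate removal are not given in the sources used here. Libraries were grouped by their treatment label.

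Lengths were recovered as described in the report. Counts were fitted for all transcripts with edgeR 4.0.16 in R 4.3.3 (filterByExpr, minimum count 10, minimum total 15; TMM; robust quasi-likelihood F test; no block), and p-values were adjusted over the 29059 tested transcripts. The common dispersion was 0.01551. Log2 fold changes come from the fit, and standard errors from the coefficient and its F statistic. The code was tested on simulated data.

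Members and lists were chosen with earlier results of these data known. Members described in full were, per run, the 10 with the highest mean CPM and up to 8 called members per direction with the smallest p and no overlap between groups; others named are so marked. Alternatives were RLE and library-size scaling, other filters, DESeq2 1.42.0, limma 3.58.1 on log2(TPM + 0.5), a replicate block, leaving out each library or uc012ath.2, keeping identical rows once, and stricter count and length limits; comparison sets of 300 nt or more and of 1000 counts or more were added after seeing the data.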

Additional observations from a re-analysis of the deposited data

How the results depend on the processing

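The 30 members described in full gave 390 comparisons with an alternative: 335 kept direction and call, 34 gained a call, 21 lost one and 0 changed direction. Of the 21 losses, 11 came with limma on TPM, which moved the median of all tested transcripts by -0.15 (library-size scaling: 0.07). The number of uc007p members called, 30, became 46 with library-size scaling, 50 with no count filter, 53 with the replicate number as a block and 17 under 500 nt, and between 43 and 51 with 1 library left out (51 without DMSO replicate 2, 49 without thapsigargin replicate 1), where the lone library of a group is assumed to vary like the other group. DESeq2 called 29 uc007p members higher, 24 of them shared with the 28 of edgeR, and 0 lower. The median log2 fold change of uc007p ran from 0.94 to 1.73 with 1 library left out. The 30 members described in full were picked for abundance or small p in the main fit, so their kept direction is partly set by that choice. Over all members, limma on TPM changed the sign for 5 in uc007p and 4 in uc008q. With 1 library left out the sign changed for 1 to 5 members in uc007p and 1 to 6 in uc008q. The other fits changed it for 0 or 1 member of a run. In uc008q, 10 called became 5 with limma on TPM and 5 under 500 nt, and the median of 0.22 became 0.10 and 0.50, and 0.16 to 0.34 with 1 library left out. The median of the other short transcripts, 0.08, became -0.069 with limma on TPM, 0.15 with library-size scaling, 0.094 with no count filter, 0.070 at 100 counts or more, 0.16 under 500 nt, 0.043 at 300 nt or more, 0.16 at 1000 counts or more, and 0.055 to 0.13 with 1 library left out. Apart from the narrower sets, the cause was not tested. The differences in share ran from 0.849 to 1.05 percentage points in uc007p and from 0.243 to 0.249 in uc008q with 1 library left out. The block was not taken as the design, because replicate numbers carry no stated meaning and there are only 2 pairs; it gave 51 higher and 2 lower in uc007p and 11 higher in uc008q. With 2 libraries a group and a second DMSO library of 2405801 counts, members of few CPM cannot show small differences.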
